A study of Sus scrofa with 20 samples.

Results

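PNPLA2, LIPE and PNPLA3 encode lipases that act on the triglyceride stored in lipid droplets. They were chosen by name, as loci XLOC_018039 (PNPLA2, ENSSSCG00000012841), XLOC_026775 (LIPE, ENSSSCG00000003018) and XLOC_036970 (PNPLA3, ENSSSCG00000027266), and make up 3 of the 23483 loci in the deposited count table. PNPLA2, also called adipose triglyceride lipase, takes the first fatty acid off triglyceride. LIPE, hormone-sensitive lipase, removes the next one from the diglyceride that is left, and the monoglyceride lipase MGLL finishes the reaction. The protein ABHD5 activates PNPLA2 and G0S2 inhibits it, while adrenergic signals acting through cAMP raise the activity of LIPE and insulin restrains it. PNPLA3 is a close relative of PNPLA2 with weak lipase activity of its own, and in mice its transcript is known to rise with feeding together with the genes of fat synthesis.

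The RNA came from backfat, the subcutaneous fat along the back, of 10 female and 10 castrated male Italian Large White pigs, with 1 library per animal. All animals had shared housing and diet, weighed 150 to 160 kg and went to a commercial slaughterhouse at 235 to 250 days of age (females) or 233 to 249 days (castrated males). Polyadenylated RNA was read as paired ends, and the deposited tables hold raw counts and FPKM (fragments scaled to transcript length and library size). Libraries are named by labelled sex and a number in deposit order, which pairs no animals. In whole tissue, fewer fat cells and less of a transcript per fat cell cannot be told apart.

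Total counts ran from 25754778 to 51248122 per library. Of 11 fat cell markers, 7 were matched to a locus, and all 7 had a median above 1 FPKM. Their summed level ran from 2182 to 7854 FPKM in females and from 1184 to 7043 FPKM in castrated males. Macrophage markers, 5 of 7 with a locus, summed to 110 to 308 FPKM in females and to 163 to 816 FPKM in castrated males. Castrated male 1 had both the lowest fat cell sum and the highest macrophage sum. The 7 fat cell markers include PNPLA2 and LIPE themselves, and most of the sum is SCD and FASN, which were at 58.8 FPKM together in castrated male 1 against a median of 3094. The remaining 3 markers, PPARG, CIDEC and PLIN1, summed there to 549 FPKM, also the lowest of the 20 libraries (median 1291). PPARG and CIDEC were each the lowest there, and PLIN1 was 3rd from the lowest. In the same library LIPE was 3rd from the lowest, at 332 FPKM, and PNPLA2 was 8th from the lowest, at 244 FPKM. Of the 5 skeletal muscle markers only ACTA1 was matched, at 0 to 2.84 FPKM. The libraries labelled female 10 and castrated male 10 stood apart. The numbers in their sample titles do not follow on from those of the other libraries, and what that reflects was not tested. Without these libraries edgeR called 18 loci between the sexes. At these loci the library labelled female 10 lay nearer the mean of the other castrated males in 16 of 18, and that labelled castrated male 10 nearer the mean of the other females in 17 of 18. All values by sex use the labels as deposited, and whether these labels were exchanged was not tested. The sex tests of the lipases and the relations in counts that passed are given with and without both libraries.

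All 3 lipases were read deeply, and LIPE was the most abundant per transcript length. PNPLA2 had 7265 to 38269 counts per library, LIPE 6295 to 41635 and PNPLA3 820 to 4291. By FPKM, LIPE averaged 480 ± 124, PNPLA2 267 ± 41.3 and PNPLA3 27.5 ± 13.4 (SD, n = 20). LIPE exceeded PNPLA2, and PNPLA2 exceeded PNPLA3, in 20 of 20 libraries. The FPKM of LIPE was 1.76 times that of PNPLA2 as a geometric mean, with a low of 1.22 in female 3 and a high of 2.31 in female 4. PNPLA2 stood 10.8 times above PNPLA3, but that gap ran from 4.16 in female 3 to 26.4 in female 8. Ranked by mean FPKM among 21587 tested loci, LIPE was at place 177, PNPLA2 at 311 and PNPLA3 at 2740.

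The counts of PNPLA2 varied within a narrow range apart from 1 library. PNPLA2 had a lowest value of 446 CPM (counts scaled to library size with TMM factors), a median of 596 and a highest of 767 in females, against 274, 610 and 750 CPM in castrated males. The lowest female was female 3 and the lowest castrated male was castrated male 10. The other castrated males, at 522 to 750 CPM, lay within the range of the females. By FPKM the lowest, median and highest values of PNPLA2 were 179, 253 and 353 in females, against 222, 266 and 314 in castrated males.

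LIPE varied more. It had a lowest value of 270 CPM, a median of 639 and a highest of 796 in females, against 237, 646 and 969 CPM in castrated males. Female 3 and castrated male 10 were again the lowest of their sex, and female 6 and castrated male 6 the highest. By FPKM the lowest, median and highest values were 219, 490 and 633 in females, against 332, 495 and 717 in castrated males.

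PNPLA3 varied most. It had a lowest value of 20.1 CPM, a median of 53.9 and a highest of 101 in females, against 36.9, 58.2 and 116 CPM in castrated males. Among females, 4 libraries lay between 78.5 and 101 CPM, 4 between 20.1 and 32.04 CPM, and female 2 and female 10 between these at 47.8 and 60.02 CPM. Female 3, the lowest female for PNPLA2 and LIPE, was the highest for PNPLA3. By FPKM the lowest, median and highest values were 9.08, 23.9 and 43.0 in females, against 15.4, 25.3 and 55.4 in castrated males.

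**Figure D1:**
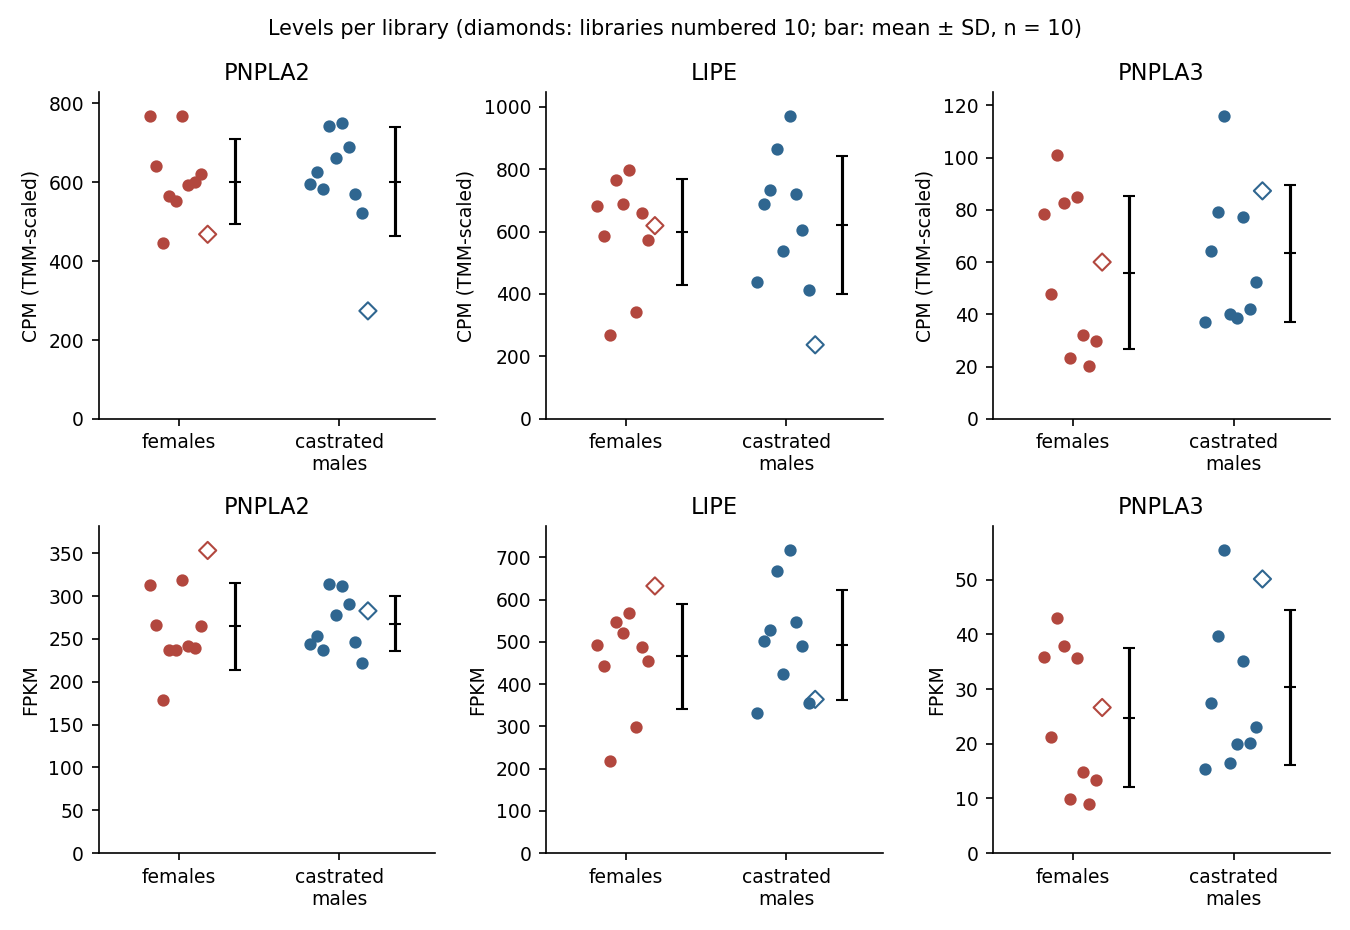
Level of each lipase per library as TMM-scaled CPM (upper row) and FPKM (lower row), females at left and castrated males at right, with mean ± SD beside each group (n = 10 each) and the libraries numbered 10 as open diamonds. The sexes overlap in every panel, and castrated male 10 is the lowest PNPLA2 library by CPM (274) but not by FPKM.

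Over all 20 libraries the highest CPM exceeded the lowest 2.80 times for PNPLA2, 4.08 times for LIPE and 5.77 times for PNPLA3. Without both libraries numbered 10 these were 1.72, 3.59 and 5.77 times. As a measure of spread between animals, the SD of log2 CPM about the sex means was 0.35 for PNPLA2, 0.55 for LIPE and 0.73 for PNPLA3. The median over the 8769 loci with a mean of at least 10 CPM was 0.26. PNPLA3 was thus more variable than 96.1% of these loci, LIPE than 91.2% and PNPLA2 than 70.5%. Without both libraries numbered 10, PNPLA2 dropped to an SD of 0.21 and the 38.8th percentile, while LIPE was at 0.48 and the 87.3rd and PNPLA3 at 0.75 and the 96.6th.

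The counts and the FPKM of PNPLA2 and LIPE disagreed in the libraries numbered 10. Castrated male 10 held the lowest PNPLA2 count of the 20 libraries at 274 CPM, yet its 283 FPKM was the 7th highest. Female 10 was the third lowest by CPM at 468 and the highest by FPKM at 353. Relative to all loci with at least 200 counts, PNPLA2 counts stood at 0.49 times the level given by FPKM in female 10 and at 0.37 times in castrated male 10. In the other 18 libraries the log2 ratio of the measures lay between -0.044 and 0.062.

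LIPE counts stood at 0.66 times the level given by FPKM in female 10 and at 0.45 times in castrated male 10. For PNPLA3 the values were 0.90 times in female 10 and 0.72 times in castrated male 10. The gap was not confined to the lipases, but PNPLA2 lay near its extreme. Over loci, the ratio of PNPLA2 was at the 0.25th percentile in female 10 and the 0.27th in castrated male 10. LIPE was at the 4.74th and 1.46th percentiles, and PNPLA3 at the 35.5th and 21.3rd. The SD over loci of the log2 ratio was 0.33 in female 10 and 0.52 in castrated male 10, against 0.076 to 0.169 in the other 18 libraries. Both libraries also had the lowest totals, 25754778 counts in female 10 and 28009303 in castrated male 10. Whether depth or another property of these libraries bears on the gap was not tested.

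**Figure D2:**
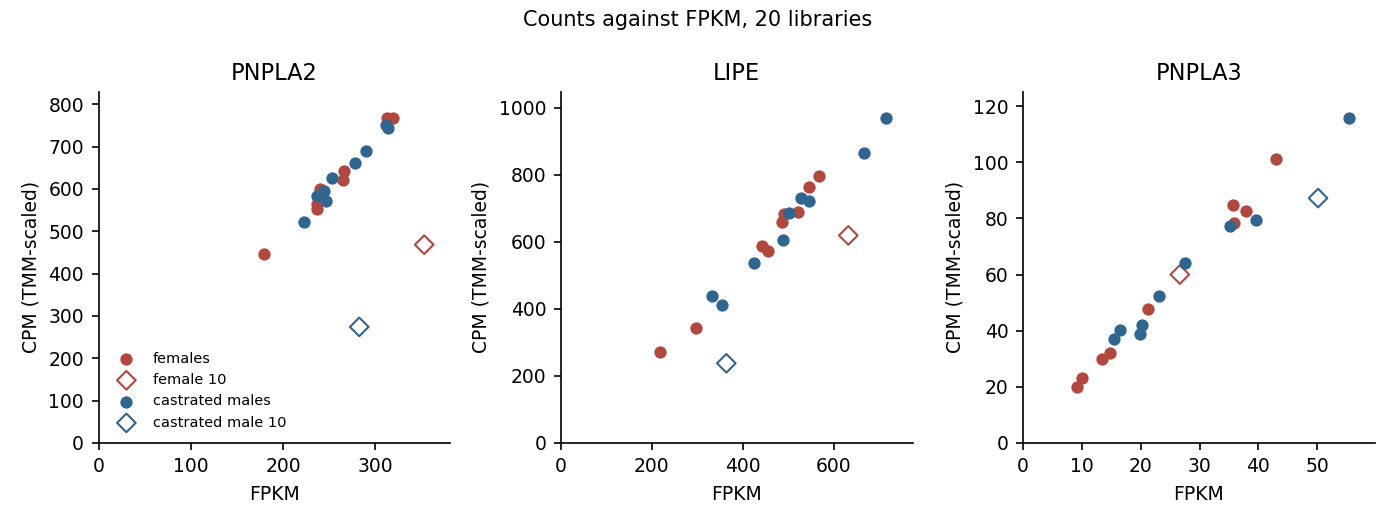
TMM-scaled CPM against FPKM for each lipase, 1 point per library, females in red and castrated males in blue, with the libraries numbered 10 as open diamonds. The other 18 libraries fall along a line, while for PNPLA2 the diamonds lie below it at 468 CPM (female 10) and 274 CPM (castrated male 10).

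None of the 3 lipases differed between the sexes beyond the spread between animals. Mean PNPLA2 was 602 ± 107 CPM in females, against 602 ± 137 CPM in castrated males (SD, n = 10 for each sex). Mean LIPE was 598 ± 170 CPM in females, against 620 ± 221 CPM in castrated males. Mean PNPLA3 was 56.0 ± 29.4 CPM in females, against 63.4 ± 26.2 CPM in castrated males.

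In edgeR's quasi-likelihood test, the 95% interval of the log2 difference, females minus castrated males, was -0.29 to 0.29 for PNPLA2 (SE 0.14), around a value of -2.3e-05. For LIPE the log2 difference was -0.053 (SE 0.22, interval -0.50 to 0.39). For PNPLA3 it was -0.18 (SE 0.29, interval -0.78 to 0.42). The Benjamini-Hochberg adjusted p of each rounded to 1 over the 21587 loci tested. The background was 0 of 21587 loci called between the sexes (0.0%). At an unadjusted p under 0.05 there were 935 (4.33%), and by DESeq2 with adjustment 6 of 21464 (0.028%). Without both libraries numbered 10, edgeR called 18 loci (0.0834%) and no lipase. The log2 differences were then -0.041 (SE 0.10) for PNPLA2, -0.14 (SE 0.20) for LIPE and -0.12 (SE 0.32) for PNPLA3.

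No ratio between the lipases passed on sex either. The log2 ratio of PNPLA3 to PNPLA2 counts was -3.61 ± 0.89 in females, against -3.31 ± 0.78 in castrated males, a difference of -0.31 (SE 0.37, two-sided permutation p = 0.421, adjusted over 3 ratios p = 0.772). The log2 ratio of PNPLA2 to LIPE was 0.057 ± 0.43 in females, against 0.0095 ± 0.29 in castrated males (difference 0.048, SE 0.16, adjusted permutation p = 0.772). That of PNPLA3 to LIPE differed by -0.26 (SE 0.42, adjusted permutation p = 0.772). Without both libraries numbered 10 the differences were -0.20 (SE 0.36) for PNPLA3 to PNPLA2, 0.12 (SE 0.17) for PNPLA2 to LIPE and -0.075 (SE 0.40) for PNPLA3 to LIPE, each with an adjusted permutation p of 0.864.

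No lipase passed on age at slaughter. With sex in the model, the log2 slope per 10 days was 0.12 for PNPLA2 (SE 0.14, interval -0.18 to 0.42), 0.16 for LIPE (SE 0.23, interval -0.32 to 0.63) and 0.074 for PNPLA3 (SE 0.32, interval -0.60 to 0.74). The edgeR adjusted p-values were 0.908, 0.923 and 0.982. The background was 0 of 21587 loci called on age (0.0%), 1189 (5.51%) at an unadjusted p under 0.05 and 5 by DESeq2 (0.0232%). Leaving out both libraries numbered 10 raised the PNPLA2 slope to 0.19 (SE 0.094, interval -0.0042 to 0.39, unadjusted p = 0.0546 and adjusted p = 0.852 by edgeR). On log2(FPKM + 0.1) over all libraries the PNPLA2 slope was 0.23 (limma-trend, unadjusted p = 0.0301, adjusted p = 0.860). The slopes of the sexes differed, females minus castrated males, by -0.012 (SE 0.30) for PNPLA2, -0.074 (SE 0.48) for LIPE and -0.16 (SE 0.68) for PNPLA3, with edgeR adjusted p-values of 0.998, 0.995 and 0.987. For that difference the background was 0 of 21587 loci (0.0%), 1170 (5.42%) before adjustment and 3 by DESeq2 (0.0139%).

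**Figure D3:**
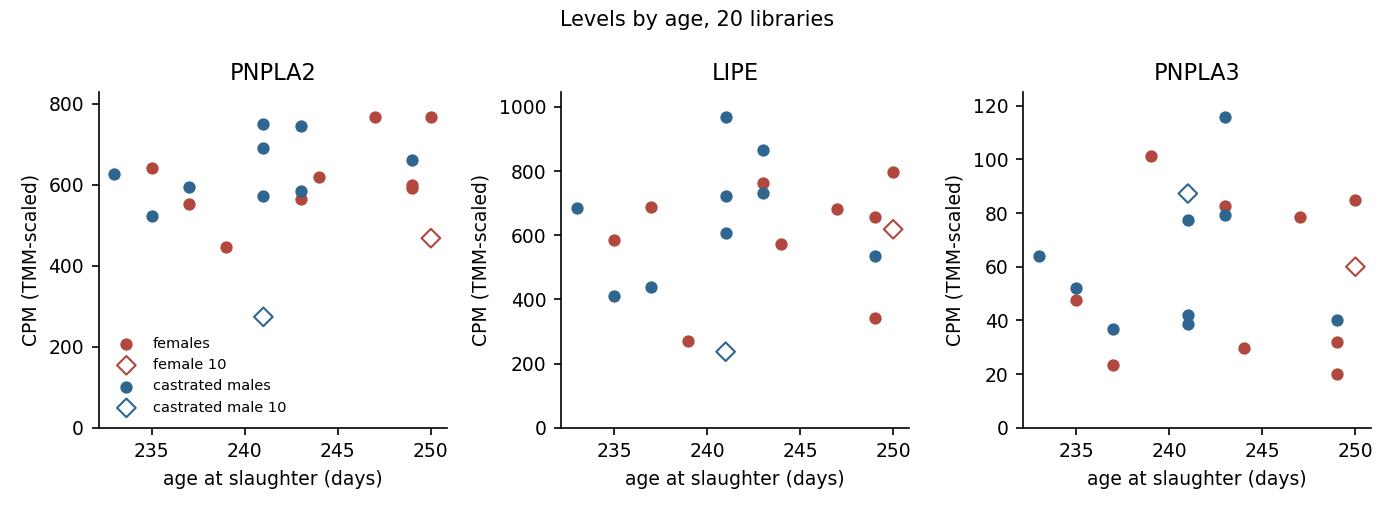
TMM-scaled CPM of each lipase against age at slaughter in days, 1 point per library, females in red and castrated males in blue, with the libraries numbered 10 as open diamonds. No lipase passed the test on age, and the PNPLA2 diamonds (468 CPM in female 10, 274 CPM in castrated male 10) lie low at their ages.

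Across animals, PNPLA2 and LIPE varied together, and no relation of PNPLA3 with either passed. Relations were computed on log2 CPM with the mean of each sex removed (n = 20). They covered the 3 pairs of lipases and each lipase with 15 partner genes, 48 relations in all. P-values came from two-sided permutation, with Benjamini-Hochberg adjustment over the 48 relations. The lipases and partners were chosen with earlier results of these data known, and the adjustment does not cover that choice. PNPLA2 and LIPE had r = 0.77 (permutation p = 0.00014, adjusted p = 0.00336) and rho = 0.58 (permutation p = 0.00789, adjusted p = 0.0631). Within the sexes r was 0.54 in females and 0.90 in castrated males, and without both libraries numbered 10 it was 0.65 in females and 0.78 in castrated males. Without castrated male 10 and female 3, the libraries farthest from the PNPLA2 median, r dropped to 0.47 (permutation p = 0.0473), so much of the relation rests on them. It was 0.70 without both libraries numbered 10 (adjusted permutation p = 0.0248) and 0.71 in FPKM (adjusted permutation p = 0.0132).

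PNPLA3 had r = -0.10 with PNPLA2 (adjusted permutation p = 0.935) and r = -0.037 with LIPE (adjusted permutation p = 0.960). Both turned positive without the libraries numbered 10, at 0.13 and 0.087, and in FPKM, at 0.18 and 0.050. Neither passed under these settings. Without castrated male 10 and female 3, r was 0.31 with PNPLA2 (permutation p = 0.206) and 0.42 with LIPE (permutation p = 0.0868).

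Of its partner genes other than the lipases, LIPE passed with SLC2A4 and FASN. Its r was 0.71 with SLC2A4, the insulin-responsive glucose transporter (permutation p = 0.00028, adjusted p = 0.00336), and rho was 0.81 (adjusted p = 0.00168). Without both libraries numbered 10, r was 0.68 (adjusted permutation p = 0.0248). SLC2A4 was scarce, at 1.47 to 4.61 CPM. With FASN, fatty acid synthase, r was 0.63 (permutation p = 0.0036, adjusted p = 0.0346) and rho 0.85 (adjusted p = 0.00096). FASN was lowest in castrated male 1, at 83.4 CPM, and highest in castrated male 3, at 4582 CPM. LIPE and FASN reached 0.68 without castrated male 1 and 0.66 without both libraries numbered 10 (adjusted permutation p = 0.0450).

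With ACACA, acetyl-CoA carboxylase, which makes the substrate of fatty acid synthase, LIPE had r = 0.59 (permutation p = 0.0073, adjusted p = 0.0584) and rho = 0.74 (adjusted p = 0.00456). With SCD, the desaturase of that pathway, it had r = 0.22 (adjusted permutation p = 0.635), and with MLXIPL, the glucose-sensing factor ChREBP, 0.37 (adjusted permutation p = 0.327). LIPE had r = 0.53 with ABHD5 (adjusted permutation p = 0.0925) and 0.50 with MGLL (adjusted permutation p = 0.120). Without castrated male 10 and female 3 these dropped to 0.11 and 0.23, while r was 0.76 with SLC2A4 and 0.78 with FASN.

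PNPLA2 passed with 1 partner, MGLL, at r = 0.72 (permutation p = 0.00021, adjusted p = 0.00336). That relation was 0.52 without both libraries numbered 10 (adjusted permutation p = 0.164) and 0.18 in FPKM (adjusted permutation p = 0.672), and 0.60 without castrated male 10 and female 3 (permutation p = 0.00826). PNPLA2 with its activator ABHD5 had r = 0.44 (adjusted permutation p = 0.190), with 0.13 in females and 0.85 in castrated males. Without both libraries numbered 10 it was 0.34 in females and 0.69 in castrated males, and without castrated male 10 and female 3 it was -0.044 over both sexes (permutation p = 0.862). With the inhibitor G0S2 it had r = -0.0049. In FPKM PNPLA2 passed with SLC2A4 (r = 0.62, adjusted permutation p = 0.0372), against r = 0.52 in counts (adjusted permutation p = 0.0820).

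PNPLA3 ran opposite to PCK1, an enzyme on the route to the glycerol backbone used for re-esterifying fatty acids in fat cells. Their r was -0.73 (permutation p = 0.00026, adjusted p = 0.00336) and rho -0.74 (adjusted p = 0.00368). The lowest PCK1 level, 16.0 CPM, was in female 3, which had the highest PNPLA3 of the females, 101 CPM. In castrated male 4, with the highest PNPLA3 of all at 116 CPM, PCK1 stood at 29.2 CPM. The highest PCK1 level, 511 CPM, was in female 9, where PNPLA3 was at 29.7 CPM.

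The PNPLA3 and PCK1 relation kept its sign in every setting run. It was -0.75 in females and -0.70 in castrated males (-0.78 and -0.65 without both libraries numbered 10), -0.79 without female 8 and female 5 (permutation p = 0.00021), and -0.74 without both libraries numbered 10 (adjusted permutation p = 0.0248). In FPKM it was -0.68 (adjusted permutation p = 0.0158). PCK1 had r = 0.068 with PNPLA2 and 0.10 with LIPE. Without castrated male 10 and female 3 these turned to -0.47 (permutation p = 0.0494) and -0.41 (permutation p = 0.0902), before any adjustment. The relations of PNPLA3 with fat synthesis genes were positive and short of the threshold in counts, at 0.45 with SCD (adjusted permutation p = 0.145), 0.48 with MLXIPL (adjusted permutation p = 0.145), 0.39 with FASN and 0.35 with ACACA. MLXIPL shares its locus with other Ensembl genes. In FPKM MLXIPL reached 0.59 (adjusted permutation p = 0.0471), and by rank SCD reached rho = 0.62 (adjusted p = 0.0424). With SLC2A4 PNPLA3 had r = 0.53 (permutation p = 0.0173, adjusted p = 0.0925), which was 0.59 in FPKM (adjusted permutation p = 0.0471) and 0.63 without both libraries numbered 10 (adjusted permutation p = 0.0547).

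PPARG, the master factor of fat cells, CIDEC, a droplet fusion protein, and GPAM, the first enzyme of triglyceride assembly, passed with no lipase. Their r lay between -0.28 and 0.46 over the 3 lipases. The lowest, that of PNPLA2 with GPAM, turned to 0.26 without both libraries numbered 10 and to 0.39 in FPKM. The macrophage genes MSR1 and C1QA had r between -0.036 and 0.088 with each lipase, and the fibroblast collagen COL1A2 between -0.25 and 0.20. None of these 9 relations passed. Within the sexes, PNPLA3 with C1QA had r = 0.42 in females and -0.56 in castrated males. With MSR1 it had r = 0.30 in females and -0.33 in castrated males. These values within a sex were not tested.

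**Figure D4:**
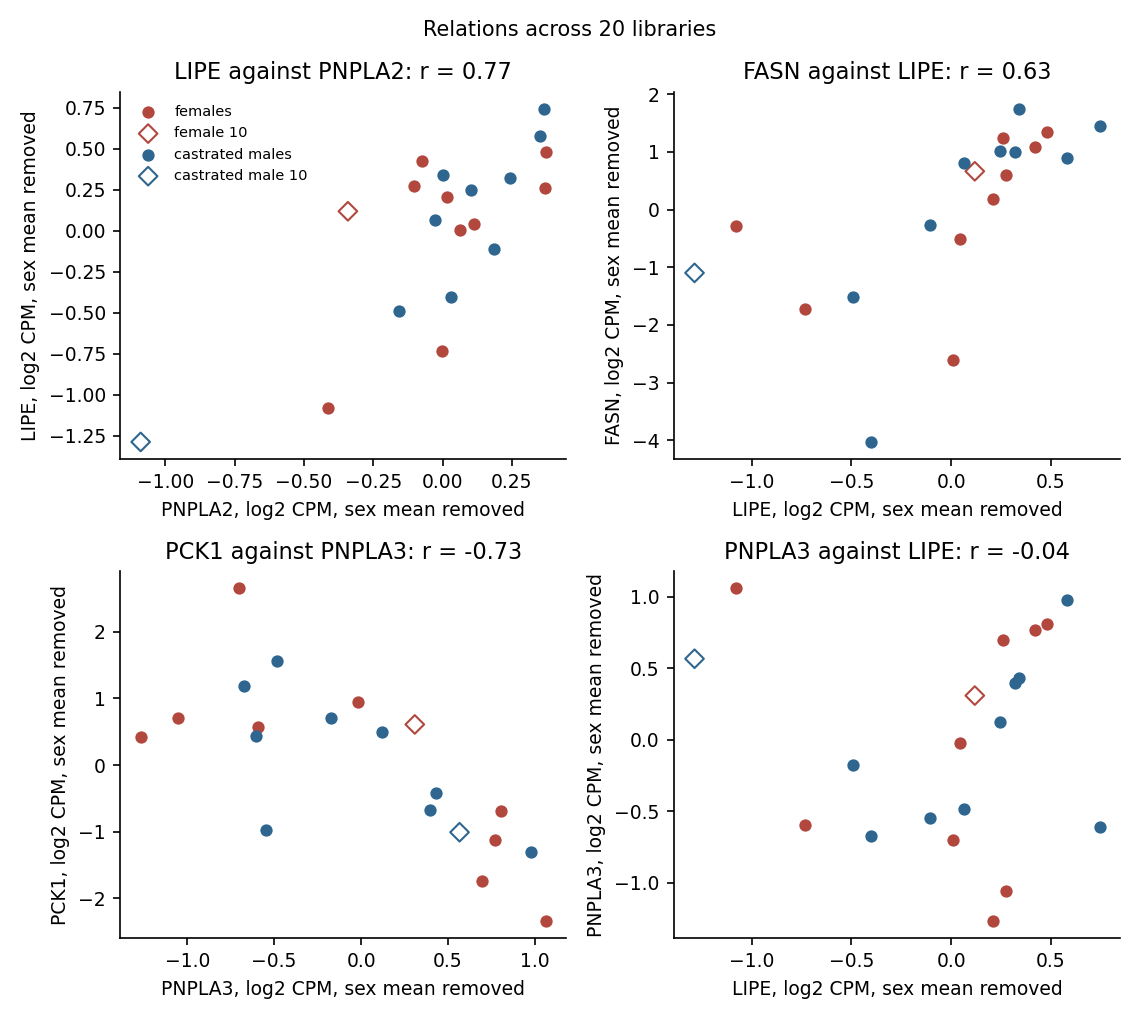
Log2 CPM with the sex mean removed, 1 point per library, for LIPE against PNPLA2, FASN against LIPE, PCK1 against PNPLA3 and PNPLA3 against LIPE, females in red, castrated males in blue and the libraries numbered 10 as open diamonds. PCK1 falls as PNPLA3 rises (r = -0.73), while castrated male 10 and female 3 lie at the low end of the first panel (r = 0.77).

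The named loci most like each lipase across the 20 libraries were then listed by r, among 5883 with a mean of at least 10 CPM, as a description with no test. LIPE was nearest RETSAT, an enzyme of retinol metabolism, at r = 0.90, with 0.92 without the libraries numbered 10 and 0.88 in FPKM. PC, pyruvate carboxylase, followed at 0.89, with 0.87 under both alternatives. Next came MBTPS1, the protease that releases sterol-regulated factors (0.88), HDLBP, an RNA-binding protein (0.88), and ADIPOR1, an adiponectin receptor (0.88 in counts and 0.46 in FPKM). At the other end stood PLEKHA1 (-0.86), OSBPL3 (-0.85) and the splicing kinase SRPK1 (-0.81). Leaving out castrated male 1 kept all 8 values between 0.88 and 0.90 or between -0.86 and -0.80. PNPLA2, at r = 0.77, was 77th among the loci most like LIPE, and FASN, at 0.63, stood lower still. SLC2A4, with a mean of 2.74 CPM, was not among the loci ranked.

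The loci most like PNPLA2 depended on the unit. In counts they were the transcription factor USF2 (0.93), the ubiquitin-conjugating enzyme UBE2G2 (0.89), TMEM259 (0.89), the tetraspanin CD151 (0.88) and the heat shock factor HSF1 (0.88). USF2 was at 0.82 without the libraries numbered 10 and at 0.37 in FPKM. CNOT6, part of the deadenylase complex (-0.88), the channel TRPC1 (-0.88) and UBA3 (-0.84) stood at the other end. Without castrated male 1 these values were 0.94, 0.90, 0.89, 0.88, 0.89, -0.90, -0.88 and -0.85. In FPKM the nearest loci were CLUH, a regulator of mitochondrial messenger RNAs (0.82), and the fat cell factor CEBPA (0.75). CLUH was also first without the libraries numbered 10, at 0.86 on log2 CPM. LIPE was 84th among the loci most like PNPLA2 in counts, 10th in FPKM and 20th without those libraries.

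PNPLA3 had weaker likeness to any locus. MAMLD1 led at 0.75, followed by the glycolytic enzyme HK1 (0.69), the factor NFATC2 (0.67), the secreted protease HTRA3 (0.67) and the zinc finger protein HIVEP2 (0.66). PCK1 had the lowest value of all 5883 loci at -0.73, before NKAP (-0.71) and ZNF143 (-0.66). Without castrated male 1 these were 0.76, 0.68, 0.66, 0.66, 0.68, -0.72, -0.73 and -0.67. In FPKM OGDH, a subunit of a citric acid cycle enzyme, led at 0.75 and HK1 was at 0.71.

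Isoforms were tied to a locus where neighbouring isoform FPKM values summed to the locus FPKM within 0.1% in all 20 libraries, which gave 5 isoforms of PNPLA2, 7 of LIPE and 8 of PNPLA3. Most PNPLA2 signal came from 1 isoform. TCONS_00047337, nearest the Ensembl transcript ENSSSCT00000014036, was the highest in 20 of 20 libraries, with 74.9 ± 9.80% of the locus FPKM in females and 72.9 ± 11.8% in castrated males. It ranged from 56.8% in castrated male 10 to 91.6% in castrated male 2. TCONS_00047334 held nearly all the rest, at 22.9 ± 9.99% in females and 25.0 ± 11.6% in castrated males. The other isoforms of PNPLA2 stayed at or below 2.53% in every library.

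LIPE was spread over more isoforms. TCONS_00070077 held 40.6 ± 3.67% in females and 41.6 ± 4.12% in castrated males, and was the highest in 19 of 20 libraries. TCONS_00070078 held 22.8 ± 5.92% in females and 21.9 ± 3.41% in castrated males, and exceeded it only in female 10, where it reached 34.8%. TCONS_00070076 kept a nearly fixed share of 20.7 ± 1.47% in females and 20.9 ± 1.21% in castrated males. The isoform matched to the Ensembl transcript ENSSSCT00000003352, TCONS_00070080, averaged 3.87 ± 3.27% in females and 3.57 ± 3.17% in castrated males. It was listed at 0 in 4 libraries, female 3, female 7, castrated male 9 and castrated male 10, which were among the 5 libraries lowest in LIPE FPKM. Its highest share, 9.17%, was in castrated male 6, the library highest in LIPE.

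PNPLA3 had no settled main isoform. TCONS_00095771 was the highest in 12 libraries, at 34.9 ± 12.3% in females and 31.2 ± 8.19% in castrated males. TCONS_00095768 was the highest in 7 libraries, at 21.5 ± 13.6% in females and 26.5 ± 10.7% in castrated males, and ran from 0 in female 10 to 50.7% in female 7. TCONS_00095769 held 23.0 ± 3.78% in females and 21.2 ± 9.51% in castrated males. TCONS_00095775, nearest ENSSSCT00000026951, held 13.9 ± 5.12% in females and 16.2 ± 9.03% in castrated males and was the highest in 1 library.

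By limma-trend on log2(FPKM + 0.1), 20 of 33316 isoforms (0.06%) were called between the sexes and 781 (2.34%) had an unadjusted p under 0.05. No isoform of the lipases was among the calls, of 15 tested (smallest unadjusted p = 0.155, limma adjusted p rounding to 1). On age 0 of 33316 isoforms were called (0.0%), and 1471 (4.42%) had an unadjusted p under 0.05. Of the lipase isoforms the smallest unadjusted p on age was 0.0303, for the minor PNPLA2 isoform TCONS_00047335 (log2 slope 0.55 per 10 days, limma adjusted p = 0.977). Isoform FPKM are estimates that divide shared reads, and no read count per isoform was used here.

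**Figure D5:**
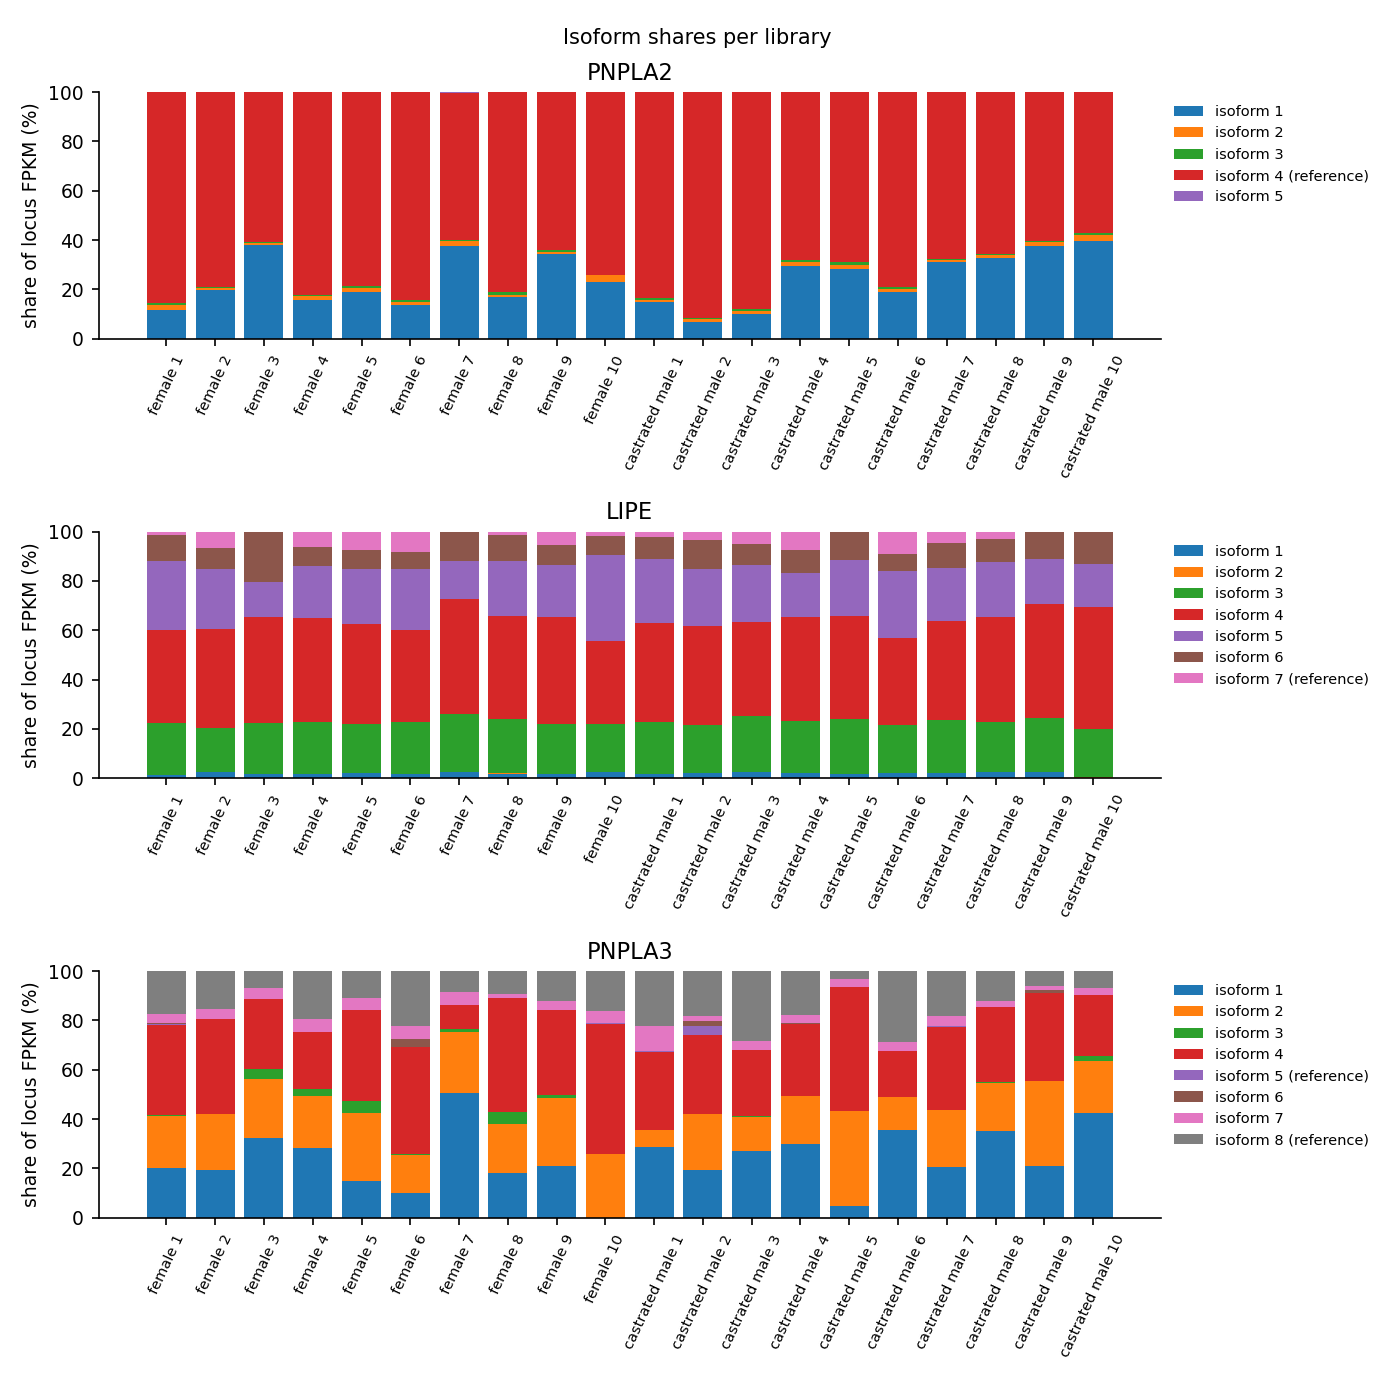
Share of the locus FPKM held by each isoform in each library, in percent, females at the left of each panel and castrated males at the right, with isoforms numbered in file order and those nearest an Ensembl transcript marked as reference. PNPLA2 isoform 4 is the tallest segment in 20 of 20 libraries, while the leading isoform of PNPLA3 changes between libraries.

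In edgeR 0 of 21587 loci (0.0%) were called on sex and 0 on age, so no gene of the pathway around the lipases was. Of 16 lipases and cofactors, 10 were tested, the 3 lipases included. On sex 4 were above 0 and 6 below, with a median log2 difference of -0.026 against 0.0036 over all loci. MGLL stood at 666 ± 122 CPM in females, against 713 ± 172 CPM in castrated males. ABHD5 stood at 133 ± 37.0 CPM in females, against 121 ± 23.6 CPM in castrated males. G0S2 had the smallest unadjusted p on sex, with 11.7 ± 6.36 CPM in females, against 7.51 ± 3.26 CPM in castrated males (log2 difference 0.64, SE 0.29, edgeR unadjusted p = 0.0350, adjusted p rounding to 1). On age 9 of the 10 slopes were above 0, against 50.2% of all loci. Their median was 0.12 per 10 days, against 0.00083 over all loci. The 3 lipases are among the 10, and no test was run on the list as a whole. The smallest unadjusted p was that of ABHD6, a monoglyceride lipase (slope 0.26, p = 0.0208, edgeR adjusted p = 0.859).

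In the PNPLA family, 4 of 8 members had a tested locus. Beside PNPLA2 and PNPLA3 these were PNPLA6, a phospholipase of nerve cells, at 112 ± 16.7 CPM in females, against 119 ± 21.2 CPM in castrated males, and PNPLA8, a phospholipase, at 12.5 ± 2.68 CPM in females, against 13.0 ± 3.08 CPM in castrated males. The PNPLA6 locus spans 2 Ensembl genes, and its age slope was -0.11 (edgeR unadjusted p = 0.330). Per length, PNPLA3 (27.5 FPKM) stood beside PNPLA6 (28.0 FPKM) and above PNPLA8 (7.51 FPKM).

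The other lists held no call in edgeR either, on sex or age, where 0 of 21587 loci were called. Lipid droplet proteins, 7 of 15 tested, had a median log2 difference of -0.012 on sex and a median slope of 0.26 on age with 7 of 7 slopes above 0, against 50.2% of all loci. PLIN1 is also counted among the lipases and cofactors. Genes of a list were read in the same animals and can vary together, and no test was run on any list as a whole. The smallest unadjusted p of the droplet proteins was on the age slope of CIDEC, 0.48 per 10 days (edgeR unadjusted p = 0.0453, adjusted p = 0.867), followed by PLIN1 at 0.26 (unadjusted p = 0.133). PLIN1, the coat protein that holds ABHD5 away from PNPLA2, had 1201 ± 232 CPM in females, against 1265 ± 385 CPM in castrated males, from a locus that spans 2 Ensembl genes.

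The cAMP arm of lipolysis, 12 of 20 tested, had medians of 0.043 on sex and -0.017 on age. Its smallest unadjusted p values were on age, for the phosphodiesterase PDE4D (slope -0.58, SE 0.17, p = 0.00278, edgeR adjusted p = 0.848) and the protein kinase A subunit PRKAR1A (slope -0.22, p = 0.0366). The insulin arm, 9 of 13 tested, had medians of -0.0073 on sex and 0.017 on age. Its smallest unadjusted p values were on the age slopes of FOXO1, a factor that insulin signalling shuts out of the nucleus (0.22, p = 0.0519), and the insulin-signalling kinase AKT2 (0.25, p = 0.0823), whose locus spans 3 Ensembl genes. Fat synthesis genes and their factors, 11 of 15 tested, had medians of -0.034 on sex and 0.30 on age. Of their age slopes 9 of 11 were above 0, against 50.2% of all loci, again with no test of the list. MLXIPL (slope 0.30, p = 0.0683) and the sterol factor SREBF2 (slope -0.19, p = 0.0962) came nearest the threshold there. Triglyceride assembly genes, 5 of 11 tested, had medians of 0.10 on sex and 0.19 on age. GPAM (slope 0.19, p = 0.0605) and the glycerol phosphate dehydrogenase GPD1 (slope 0.24, p = 0.125) had their smallest unadjusted p values.

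The Ensembl gene of LIPE was tied to other loci besides XLOC_026775. XLOC_027723 had 792 to 3779 counts per library and XLOC_027722 had 18 to 204, against 6295 to 41635 at XLOC_026775. Whether counting used strand is not given in the sources used here, so reads of overlapping transcripts cannot be told apart. In RefSeq's Sscrofa11.1 annotation, a later build than that of the files, ATP5SL overlaps LIPE and a long non-coding RNA overlaps PNPLA3. In that order RPLP2 and CRACR2B flank PNPLA2 and had r of 0.36 and 0.17 with it, while SAMM50 lies beside PNPLA3 and had r = 0.22 with it. CD151, named above as like PNPLA2 (r = 0.88), has the locus number next to that of CRACR2B. Whether position bears on that relation was not tested.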

How the data were processed

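RNA-seq of backfat from 10 female and 10 castrated male pigs was analysed, with 1 library per animal. The authors deposited raw read counts for 23483 loci and FPKM for the same loci and for 63418 isoforms. Cufflinks 2.1.1, TopHat2 2.0.8, Bowtie2 2.1.0.0, DESeq2 and the build Sscrofa10.2 are named without roles, per the submitters' processing notes. The counting tool, annotation and strand setting were not given in the sources used here.

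Counts were tested with edgeR 4.0.16 (R 4.3.3): TMM factors, the filterByExpr filter by group (21587 loci kept), quasi-likelihood fits and Benjamini-Hochberg adjustment at 0.05, for sex, for age with sex in the model, and for the sex by age term. Log2 CPM used a prior count of 2. Alternatives used DESeq2 1.42.0, limma 3.58.1 voom with quality weights (called limma-voom below), and limma-trend on log2(FPKM + 0.1), where small values are compressed. Isoforms were tested at FPKM of at least 0.5 in 10 libraries. Correlations used 100000 permutations (Python 3.11.15, scipy 1.17.1, numpy 2.4.6, pandas 2.3.3). Figures used matplotlib 3.10.9. The fits were tested on simulated data. Replicates are animals, so p-values measure the spread between animals.

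Totals of 25754778 to 51248122 counts (median 36922247) give counting errors far below the spread between animals for these loci. The lipases, lists, partners and rule for named genes were chosen with earlier results of these data known. That rule took the lipases, their fixed partners, up to 4 members per list past the threshold or else members of smallest p, the PNPLA family, and for each lipase the 5 loci most like it and the 3 least like it. Gene symbols came from Ensembl identifiers. RefSeq promoter and protein sequences were planned and not analysed here.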

Additional observations from a re-analysis of the deposited data

Results flagged for a closer look

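Among the castrated males, PNPLA2 was far lower in the library labelled castrated male 10, at 274 CPM, than in the next lowest, castrated male 9, at 522 CPM. The gap between them took 0.521 of the range of the group, above Dixon's critical value for 10 samples. The test was run on CPM and FPKM of each lipase in each sex, 12 groups in all, of which chance flags about 1 in 20. In FPKM the same library had 283, the 7th highest of 20, and LIPE in it stood at 237 CPM and 364 FPKM. What sets the library apart was not tested.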

How the results depend on the processing

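Of 329 alternative values, 270 kept their direction and their side of the threshold, and 45 reversed direction. A further 13 were classed as moved and 1 as weaker. The sex difference of PNPLA2 reversed in 12 of the 20 fits that left out 1 animal. No sex difference or age slope of a lipase passed in any setting run. The sex difference of PNPLA2, near 0, turned to 0.0016 with DESeq2 size factors in edgeR and with DESeq2, and to 0.026 with upper-quartile scaling. Leaving out each animal in turn, it ran from -0.085 to 0.044, that of LIPE from -0.15 to 0.040 and that of PNPLA3 from -0.31 to -0.040. That of PNPLA3, -0.18 in edgeR, was -0.41 with limma-voom, -0.36 and -0.34 on log2(FPKM + 0.1) and log2(FPKM + 1), and -0.29 on FPKM without both libraries numbered 10. The age slopes per 10 days then ran from 0.078 to 0.19 for PNPLA2, 0.060 to 0.24 for LIPE and -0.080 to 0.27 for PNPLA3, which was -0.013 with limma-voom. The slope differences ran from -0.12 to 0.12 for PNPLA2, -0.36 to 0.091 for LIPE and -0.66 to 0.17 for PNPLA3, and that of PNPLA2 was 0.057 without both libraries numbered 10.

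Loci called between the sexes, 0 in edgeR, were 9 with limma-voom, 12 and 11 on log2(FPKM + 0.1) and log2(FPKM + 1), 6 with DESeq2 and 18 without both libraries numbered 10. On FPKM without those libraries, a setting chosen after seeing the data, there were 14. Without 1 animal the count ran from 0 to 13, with 13 without female 10 and 7 without castrated male 10. Loci called on age, 0 in edgeR, were 1 on each FPKM scale, 5 with DESeq2, and 0 to 1 without 1 animal. By Spearman's rho the relation of PNPLA2 and LIPE was 0.58 and missed the threshold. That of PNPLA2 and PNPLA3 turned positive in FPKM (0.18), without both libraries numbered 10 (0.13) and by rho (0.041), and that of LIPE and PNPLA3 likewise (0.050, 0.087 and 0.20). The cause of these changes was not tested. No paired analysis was possible because library numbers follow deposit order and pair no animals. The lowest count of a lipase in any library was 820, which bears on counting error only. Whether depth bears on the gap between counts and FPKM in the libraries numbered 10 was not tested. The width of the intervals depends on the number of animals and on the spread between them.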
